A study of Mus musculus with 6 samples.

Results

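Genes of mouse chromosome 4, the chromosome that carries Zmpste24, were examined probe set by probe set, namely Akirin1, Rps6, Ndufs5, Ptp4a2, Cap1, Rhbdl2, Hyi and Mycl. They are 8 of the 18193 genes that the platform annotation pairs alone with a probe set, and they hold 18 of 45037 probe sets. They were chosen by the log2 difference between the genotypes in these same arrays, some of them because probe sets of one gene disagreed. Their genotype differences are therefore given as a description, with no test. The arrays were Affymetrix Mouse Genome 430 2.0, on which each probe set measures a stretch of one transcript, or of several related ones, and the values are linear signal intensities scaled by the authors to one level per array. The Zmpste24-/- group was 3 cultures of mouse embryonic fibroblasts without functional Zmpste24, and the WT group was 3 Zmpste24+/+ cultures. All were labelled C57BL/6 and came from E13.5 embryos and were collected at passage 3, with 1 array per culture. Both genotypes have a culture 1, 2 and 3, and the growth notes call them pairs. How the Zmpste24 allele was made, and in which strain's cells, is not given in the sources used here.

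Zmpste24 encodes the zinc metalloprotease that trims farnesylated prelamin A to lamin A, and loss of it leaves prelamin A uncut at the nuclear lamina. The genes examined here share a chromosome with it rather than a pathway. Akirin1 encodes a small nuclear protein, Rps6 a protein of the small ribosomal subunit that S6 kinases phosphorylate, and Ndufs5 an accessory subunit of respiratory complex I. Ptp4a2 encodes a phosphatase of the PRL family, whose members are themselves prenylated, and Cap1 an actin-monomer-binding protein that works with cofilin in filament turnover. Rhbdl2 encodes a rhomboid protease, which cleaves within the membrane, and Mycl a transcription factor of the MYC family that pairs with MAX. Hyi is named for hydroxypyruvate isomerase, and RefSeq lists the mouse locus as a transcribed pseudogene.

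In the RefSeq gene order of assembly GRCm38.p6, 6 of the members follow Zmpste24 on the side of higher coordinates. Between Zmpste24 and Cap1 lie 9 protein-coding genes, and there are 11 up to Mycl, 24 up to Ndufs5, 25 up to Akirin1 and 26 up to Rhbdl2. No annotated gene lies between Akirin1 and Rhbdl2, and 1 lies between Ndufs5 and Akirin1. Ptp4a2 is further out on the same side, past 121 protein-coding genes. Hyi and Rps6 lie on the other side of Zmpste24, beyond 57 and 317 protein-coding genes. The members thus span a large part of the chromosome, with a group of neighbours near Zmpste24.

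The promoters of Akirin1, Ndufs5 and Rps6 are shown because the probe sets that carry these symbols alone and were called with the block had lower signals in the Zmpste24-/- cultures. For Ndufs5 the probe set may read a pseudogene on chromosome 16, as described with its values, so its promoter is shown on the symbol only. The other probe set of Akirin1 alone was not called, and how far the Rps6 transcript as a whole differed is not settled, as also described with their values. They run 5′ to 3′ from 250 bases before to 50 bases after the RefSeq start, in build GRCm38.p6. All are on the minus strand, Akirin1 at chr4:123750250-123750549, Ndufs5 at chr4:123718137-123718436 and Rps6 at chr4:86857318-86857617. Capitals mark the cyclic AMP response element TGACGTCA in Akirin1, the palindromic NRF1 motif in Ndufs5 and the ETS motif CCGGAAGT in Rps6.
Akirin1: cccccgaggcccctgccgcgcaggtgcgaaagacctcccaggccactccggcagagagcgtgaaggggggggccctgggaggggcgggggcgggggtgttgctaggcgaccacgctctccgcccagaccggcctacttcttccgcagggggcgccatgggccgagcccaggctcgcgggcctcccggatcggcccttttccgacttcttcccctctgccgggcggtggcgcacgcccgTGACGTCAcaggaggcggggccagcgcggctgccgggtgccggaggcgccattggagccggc
Ndufs5: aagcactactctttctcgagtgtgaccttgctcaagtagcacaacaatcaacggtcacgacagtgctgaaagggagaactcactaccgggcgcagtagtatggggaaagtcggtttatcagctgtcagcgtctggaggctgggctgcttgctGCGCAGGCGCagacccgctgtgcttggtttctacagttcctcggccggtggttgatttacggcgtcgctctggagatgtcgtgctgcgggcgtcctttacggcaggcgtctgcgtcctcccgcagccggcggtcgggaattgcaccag
Rps6: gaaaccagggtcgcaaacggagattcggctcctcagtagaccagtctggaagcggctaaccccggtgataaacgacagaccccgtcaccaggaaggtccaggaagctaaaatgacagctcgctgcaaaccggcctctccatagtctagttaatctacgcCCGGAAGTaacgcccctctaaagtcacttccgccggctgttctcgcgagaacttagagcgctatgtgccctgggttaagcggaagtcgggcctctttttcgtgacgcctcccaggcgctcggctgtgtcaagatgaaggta

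Each marked motif was found on 1 site of its promoter, beginning 12, 98 and 91 bases before the start in Akirin1, Ndufs5 and Rps6. Searched on both strands, TGACGTCA was in 1.79% of 32851 promoters of the same length, the NRF1 motif in 4.60% and CCGGAAGT in 3.89%. None of these 3 motifs was shared among the 3 promoters. The Akirin1 promoter also held GGGCGG at 4 sites, a motif found in 35.7% of promoters, and CCAAT once, found in 37.4%, and neither overlapped the marked element. Searches for CACGTG (7.15% of promoters), TATAAA (13.6%) and AAGATGGC (2.75%) found no match in these 3 windows. G and C made up 75.7% of the Akirin1 window, 59.0% of that of Ndufs5 and 56.3% of that of Rps6, against a median of 52.7% over all promoters. The Ptp4a2 window, at 81.7%, held no match to any of the 8 motifs searched.

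Zmpste24 itself was low in every culture labelled Zmpste24-/-. Its signal was 365, 182 and 226 in Zmpste24-/- cultures 1, 2 and 3, against 3850, 2249 and 2043 in WT cultures 1, 2 and 3. Markers of fibroblasts were bright on all arrays, the sum of 11 markers lying between 101530 and 130590 in Zmpste24-/- cultures and between 107614 and 132393 in WT cultures. The arrays numbered 1 stood apart in both genotypes: across probe sets they correlated with the other 4 arrays at 0.927 to 0.934, and those 4 among themselves at 0.9801 to 0.987. The sum of 6 macrophage markers was 10316 in Zmpste24-/- culture 1 and 5735 in WT culture 1, and 1028 to 1567 in the other 4. Lyz2 was the brightest of these markers, at 463 to 7191, and C1qa ran from 3.18 to 1008. Epithelial markers summed to 471 to 545 in number 1 and to 895 to 1388 in numbers 2 and 3. Sums of the dimmer endothelial and muscle markers were also lower in number 1, and those of neuron markers overlapped. By their brightest probe sets, Xist, expressed from the inactive X, was at 6669, 4766 and 6660 in Zmpste24-/- cultures 1, 2 and 3, against 5324, 69.3 and 43.7 in WT cultures 1, 2 and 3. The Y-linked Eif2s3y was at 10.4 to 15.7 in Zmpste24-/- cultures, against 531 and 1341 in WT cultures 2 and 3, and was lower still in WT culture 1. Kdm5d, also Y-linked, was at 0.495 to 11.8 in Zmpste24-/- cultures, against 12.9, 326 and 415 in WT cultures 1, 2 and 3. Sex, which the labels do not give, therefore differed between the genotypes in numbers 2 and 3 by these transcripts, so that genotype and sex cannot be told apart there. Only number 1 compares cultures of like sex. In such bulk samples, fewer cells of a type and less RNA per cell cannot be told apart either.

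Of the 18 member probe sets, 13 passed the filter, which dropped the 40% of probe sets with the lowest mean signal, below 39.4. The mean of each genotype was above that limit for all 13. In limma without a block, 0 of 27022 tested probe sets were called at an adjusted p under 0.05 (0% of those tested), and 349 had an unadjusted p under 0.05 (1.29%). With the culture number as a block 5 were called (0.0185%), all lower in Zmpste24-/-. They were Zmpste24, 3 member probe sets (of Akirin1, Rps6 and Ndufs5) and 1 probe set without a single symbol. The genotype ranges did not overlap for 7 of the 13 member probe sets, 5 lower and 2 higher in Zmpste24-/-, where 3.03% of all tested probe sets were lower without overlap and 2.22% higher. Since this contrast chose the members, nothing is read from their counts.

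**Figure D1:**
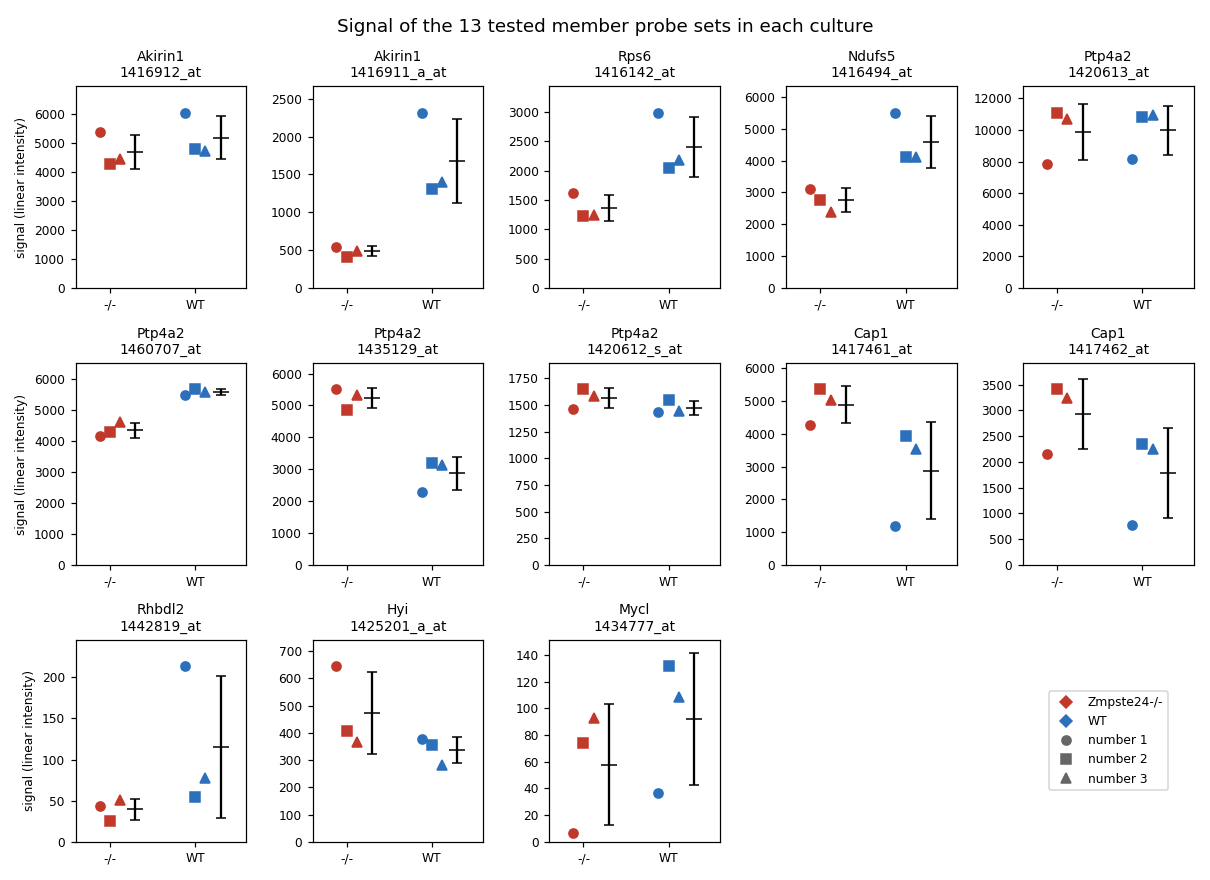
Signal (linear intensity, from 0) of the 13 tested member probe sets in each culture, Zmpste24-/- left and WT right in each panel, with the marker shape giving the culture number and the bar the mean and SD of 3 cultures. One Akirin1 probe set lay between 414 and 547 in Zmpste24-/- cultures and between 1310 and 2318 in WT cultures, while the other overlapped.

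Akirin1 showed the widest disagreement among the members. Its probe set 1416911_a_at had 547, 414 and 494 in Zmpste24-/- cultures 1, 2 and 3, against 2318, 1310 and 1404 in WT cultures 1, 2 and 3. The groups did not overlap, and every Zmpste24-/- culture was below the lowest WT culture. The mean was 485 ± 66.8 in Zmpste24-/- and 1677 ± 557 in WT (SD, n = 3 each), or 28.9% of the WT mean. On the log2(signal + 16) scale the difference was -1.72 (SE 0.26, and 0.12 with the replicate block), and it was -2.05, -1.62 and -1.48 in numbers 1, 2 and 3. The other Akirin1 probe set, 1416912_at, had 5365, 4255 and 4457 in Zmpste24-/- cultures, against 6041, 4793 and 4710 in WT cultures. These ranges overlapped, and the difference was -0.14 (SE 0.15, and 0.055 with the block), although each Zmpste24-/- culture was below its same-numbered WT culture. Within each array the signal of 1416912_at over that of 1416911_a_at was 9.81, 10.3 and 9.01 in Zmpste24-/- cultures, against 2.61, 3.66 and 3.36 in WT cultures. Such a ratio compares arrays, since signals of different probes are not on one scale, and it shows only that the probe sets changed unequally. The platform annotation lists the same transcript accession, one of Akirin1 in RefSeq, for both.

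Ptp4a2 had 4 probe sets, all tested, with 1435129_at higher, 1460707_at lower and the others near the WT level in Zmpste24-/-. Probe set 1435129_at had 5505, 4872 and 5323 in Zmpste24-/- cultures 1, 2 and 3, against 2283, 3201 and 3127 in WT cultures 1, 2 and 3. Every Zmpste24-/- culture was above every WT culture, with a mean of 1.82 times that of WT and a log2 difference of 0.88 (SE 0.17). Probe set 1460707_at went the other way, at 4152, 4276 and 4623 in Zmpste24-/- cultures and 5499, 5668 and 5575 in WT cultures. Those groups did not overlap either, and the Zmpste24-/- mean was 78.0% of the WT mean, a log2 difference of -0.36 (SE 0.10). The WT cultures lay close together, at 5581 ± 84.6 (SD, n = 3).

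The remaining Ptp4a2 probe sets overlapped between the genotypes. Probe set 1420613_at had 7873, 11098 and 10661 in Zmpste24-/- cultures, against 8185, 10799 and 10930 in WT cultures, a log2 difference of -0.02 (SE 0.18). Here culture 1 was the low one in both genotypes. Probe set 1420612_s_at, whose suffix marks probes that can match more than one transcript, had 1465, 1646 and 1583 in Zmpste24-/- cultures and 1432, 1543 and 1440 in WT cultures, a difference of 0.09 (SE 0.14). Within each array the signal of 1460707_at over that of 1435129_at was 0.754, 0.878 and 0.868 in Zmpste24-/- cultures, against 2.41, 1.77 and 1.78 in WT cultures. The Ptp4a2 promoter was the richest in G and C among the members, with 60 CpG dinucleotides in 300 bases, against a median of 7.

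**Figure D2:**
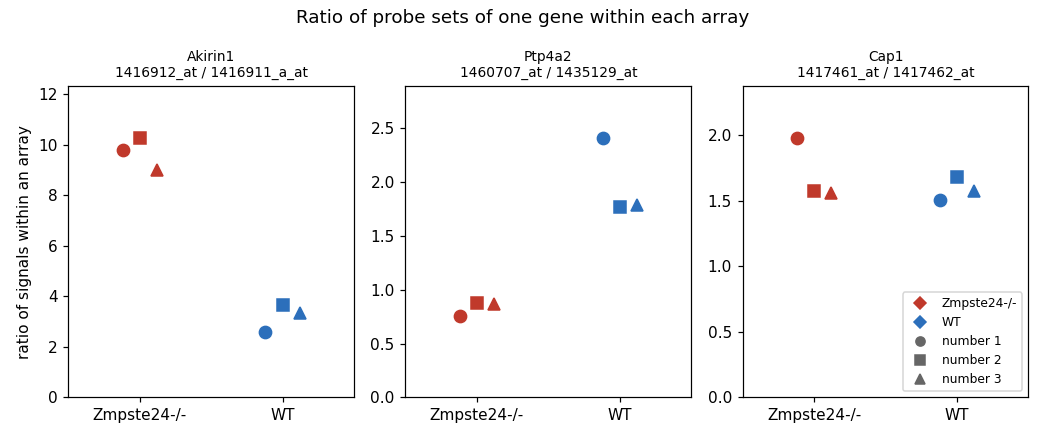
Ratio of the signals of a pair of probe sets of one gene within each array (y axis from 0, no unit), Zmpste24-/- left and WT right, with the marker shape giving the culture number. For Ptp4a2, which has several pairs, the least correlated is shown, 1460707_at over 1435129_at. The Akirin1 ratio was 9.01 to 10.3 in Zmpste24-/- and 2.61 to 3.66 in WT, the Ptp4a2 ratio 0.754 to 0.878 and 1.77 to 2.41, and the Cap1 ratio overlapped.

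Across the array, 6093 genes had at least 2 tested probe sets, and the gap between the highest and lowest genotype difference of a gene had a median of 0.19 log2 units and a 95th percentile of 0.69. The gap was 1.58 for Akirin1, rank 7 of 6093, and 1.24 for Ptp4a2, rank 29. It was 0.10 for Cap1, narrower than the median. Akirin1 and Ptp4a2 were picked with this disagreement known, so their ranks are a description.

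Rps6, the ribosomal protein, was represented alone by 2 probe sets. Probe set 1416142_at had 1623, 1238 and 1249 in Zmpste24-/- cultures 1, 2 and 3, against 2994, 2048 and 2188 in WT cultures 1, 2 and 3. The groups did not overlap, and the Zmpste24-/- mean was 56.8% of the WT mean. The log2 difference was -0.80 (SE 0.20, and 0.075 with the block), at -0.88, -0.72 and -0.80 in numbers 1, 2 and 3. The other, 1453466_at, was too dim to be tested, at 21.2, 15.6 and 6.07 in Zmpste24-/- cultures and 25.8, 38.1 and 33.4 in WT cultures, again without overlap. A further 9 probe sets carry Rps6 together with the symbol Rps6-ps4 and were assigned to neither. Their log2 differences ran from -0.32 to -0.01 with a median of -0.07, and 0 of them had ranges that did not overlap. Mean signals of these 9 ran from 66.4 to 21176, against 1890 for 1416142_at. The tested probe set with Rps6 alone thus had a larger difference than any probe set that the annotation shares. How far the Rps6 transcript as a whole differed is not settled by these probe sets.

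Ndufs5, the complex I subunit, had 1 probe set of its own and showed the same arrangement. Probe set 1416494_at had 3124, 2756 and 2375 in Zmpste24-/- cultures 1, 2 and 3, against 5509, 4123 and 4117 in WT cultures 1, 2 and 3. No Zmpste24-/- culture reached the lowest WT culture, at 2752 ± 375 in Zmpste24-/- and 4583 ± 802 in WT (SD, n = 3 each). The log2 difference was -0.73 (SE 0.18, and 0.069 with the block), at -0.82, -0.58 and -0.79 in numbers 1, 2 and 3. The accession that the annotation lists for this probe set belongs in the RefSeq table to Ndufs5-ps, a transcribed pseudogene on chromosome 16, so which of these transcripts it reads is not settled here. The 1 probe set that carries both symbols was assigned to neither and had a log2 difference of -0.02.

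Cap1, of actin turnover, was the member in which both tested probe sets pointed upward together. Probe set 1417461_at had 4266, 5358 and 5042 in Zmpste24-/- cultures 1, 2 and 3, against 1176, 3941 and 3525 in WT cultures 1, 2 and 3. The groups did not overlap, but WT culture 1 was far below the other WT cultures. Probe set 1417462_at had 2157, 3410 and 3239 in Zmpste24-/- cultures, against 781, 2343 and 2244 in WT cultures, where Zmpste24-/- culture 1 fell within the WT range. The log2 differences were 0.93 (SE 0.45) and 0.84 (SE 0.45). By number they were 1.85, 0.44 and 0.52 for 1417461_at and 1.45, 0.54 and 0.53 for 1417462_at, so number 1 gave the widest gap. Without WT replicate 1 the differences were 0.38 and 0.33. The macrophage markers given above were also far from the other cultures in number 1, and their part in the Cap1 values was not tested.

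Rhbdl2, the rhomboid protease, had 3 probe sets, all dim. The tested one, 1442819_at, had 43.1, 25.7 and 50.3 in Zmpste24-/- cultures 1, 2 and 3, against 213.6, 54.2 and 77.0 in WT cultures 1, 2 and 3. The groups did not overlap, though the gap between the nearest cultures, 50.3 and 54.2, was small. The log2 difference was -1.06 (SE 0.47), at -1.96, -0.75 and -0.49 in numbers 1, 2 and 3. Without WT replicate 1 it was -0.56, and with pseudocounts of 1 and 64 it was -1.31 and -0.69. The Zmpste24-/- mean of 39.7 was barely above the limit for dim probe sets. The others lay under that limit, 1440618_at at 22.2 to 27.2 in Zmpste24-/- cultures and 24.2 to 40.6 in WT cultures, and 1445233_at at 1.19 to 12.4 and 1.66 to 16.4.

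Hyi had 1 probe set, 1425201_a_at, with 645, 408 and 365 in Zmpste24-/- cultures 1, 2 and 3, against 376, 354 and 283 in WT cultures 1, 2 and 3. The ranges overlapped, since Zmpste24-/- culture 3 was below WT culture 1, yet each Zmpste24-/- culture was above the WT culture of its number. The log2 difference was 0.43 (SE 0.26), at 0.75, 0.20 and 0.35 by number, and it was 0.19 without Zmpste24-/- replicate 1.

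Mycl was dim throughout. Its tested probe set 1434777_at had 6.49, 74.1 and 93.1 in Zmpste24-/- cultures 1, 2 and 3, against 36.7, 131.7 and 108.3 in WT cultures 1, 2 and 3. The groups overlapped, and culture 1 was the lowest in both genotypes. The log2 difference was -0.71 (SE 0.69), at -1.23, -0.71 and -0.19 by number, and without Zmpste24-/- replicate 1 it was 0.0026. The other Mycl probe sets were under the limit, 1422088_at at 7.04 to 27.1 in Zmpste24-/- cultures and 27.7 to 45.0 in WT cultures, and 1422087_at at 3.17 to 26.1 and 6.67 to 29.2. The first of these did not overlap between the genotypes and the second did.

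**Figure D3:**
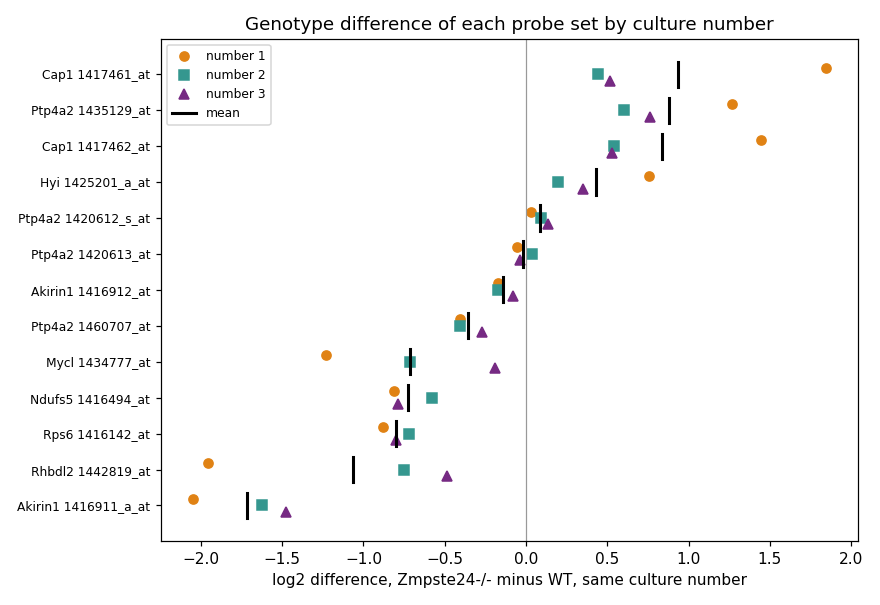
Log2 difference of signal + 16, Zmpste24-/- minus the WT culture of the same number, for the 13 tested member probe sets (rows), with the marker giving the culture number and the black bar the mean of 3. All numbers lie on one side of 0 for 12 of the 13 probe sets. Number 1 is the farthest from 0 for all but 1416912_at of Akirin1 and 1460707_at and 1420612_s_at of Ptp4a2.

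The sign was the same in all 3 numbers for 12 of the 13 tested probe sets, the exception being 1420613_at of Ptp4a2. With numbers 2 and 3 alone, the ranges did not overlap for 12 of the 13, where 34.6% of all tested probe sets did not, and limma called 3 of them, where 0.074% of all were called. Nothing is read from these counts, since the genotype contrast chose the members and genotype and sex cannot be told apart in these cultures. In that fit the log2 differences were -1.55 for 1416911_a_at of Akirin1, -0.76 for Rps6, -0.68 for Ndufs5, 0.68 for 1435129_at of Ptp4a2, and 0.48 and 0.53 for Cap1. For Rhbdl2 it was -0.62.

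The difference between culture numbers was not used to choose the members and was tested across all probe sets. In a limma F test over numbers 1, 2 and 3, with genotype in the model, 41.6% of all tested probe sets were called at an adjusted p under 0.05, and 8 of the 13 member probe sets were (61.5%). Of these, 4 were higher in number 1 (22.4% of all tested probe sets), both Akirin1 probe sets, Rps6 and Ndufs5. The other 4 were lower in number 1 (19.2% of all tested probe sets), 1420613_at of Ptp4a2, both Cap1 probe sets and Mycl. This test shares its residual spread with the block fit that called 3 of the members, so members with a small spread were favoured in both. It also made more false calls than its threshold allows when simulated with each probe set's own variance, 50 of 250 calls (20.0%), against 10 of 200 with variances drawn from limma's prior. The count was 1 of 13 with no intensity trend and 4 of 13 with median centring or without WT replicate 1, so it is not read as larger than that of other probe sets.

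The shift between numbers was largest for Mycl and Cap1. Mycl averaged 21.6 in number 1, 103 in number 2 and 101 in number 3, and its log2 difference between number 1 and the others was -1.75 (adjusted p = 0.00374 in limma's F test). The number 1 average lay under the limit of 39.4 for dim probe sets. The other Mycl probe sets, too dim to be tested, were at -0.01 (1422088_at) and -0.39 (1422087_at). For Cap1 the log2 difference between number 1 and the others was -0.97 with 1417461_at (0.0373) and -1.08 with 1417462_at (0.00460). Culture 1 was the lowest in both genotypes, but by more in WT. With 1417461_at it was 1176 against 3941 and 3525 in WT, and 4266 against 5358 and 5042 in Zmpste24-/-. Akirin1 was higher in number 1 by 0.52 with 1416911_a_at (0.0286) and 0.32 with 1416912_at (0.00744). Rps6 and Ndufs5 were higher in number 1 by 0.44 (0.00716) and 0.35 (0.0128). For Ptp4a2, 1420613_at was at -0.44 (5.90e-04), and the probe sets that differed between genotypes, 1435129_at and 1460707_at, were at -0.18 and -0.07 and were not called (0.479 and 0.597). Hyi, at 0.48 (0.0513), and Rhbdl2, at 0.84 (0.109), did not pass.

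**Figure D4:**
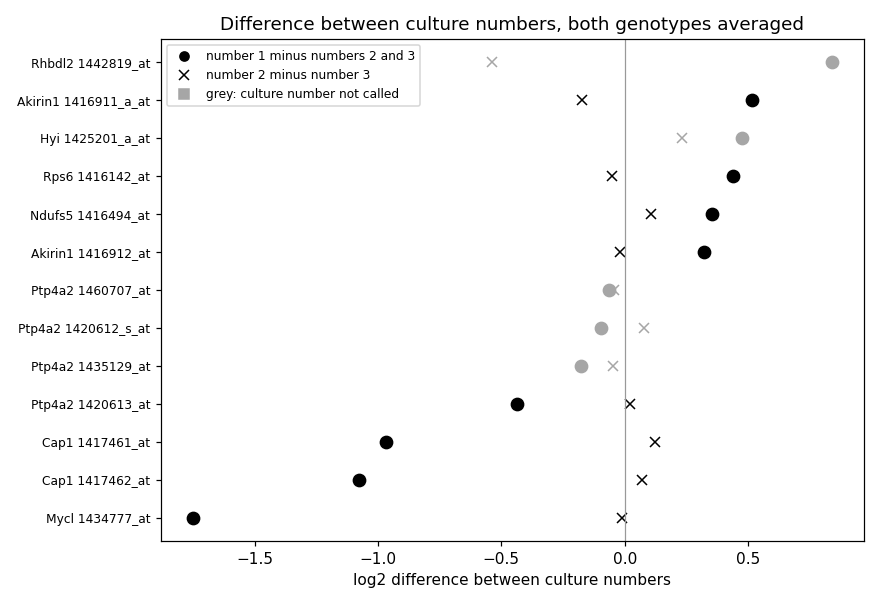
Log2 difference between culture numbers with both genotypes averaged, for the 13 tested member probe sets (rows), with circles for number 1 minus the mean of numbers 2 and 3, crosses for number 2 minus number 3, and grey for probe sets not called in the F test. Circles run from -1.75 for Mycl to 0.84 for Rhbdl2, and the crosses of the called probe sets are smaller in size than their circles.

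Genes between Zmpste24 and Rhbdl2 that are no members showed no common direction. Of 10 such tested genes, each by its brightest probe set, 6 were lower and 4 higher in Zmpste24-/-, with log2 differences from -0.53 to 0.59 and a median of -0.02. Of these, 0 were called in limma with or without the block, 0 had an unadjusted p under 0.05 without it, and 2 had one with it, where 8.99% of all tested probe sets did. Both are neighbours of a member: Ppt1, a lysosomal thioesterase that removes palmitate from proteins, at -0.36, and Pabpc4, a poly(A)-binding protein, at 0.16. Macf1, which links microtubules to actin and directly precedes Ndufs5 among the tested genes, differed by 0.10.

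Over the 47 tested genes that lie within 5 places of a member on either side, 24 were lower and 23 higher, with a median of -0.00034, against -0.0048 over all tested probe sets. In limma 0 of the 47 were called with or without the block, 2 had an unadjusted p under 0.05 without it, and 6 had one with it (12.8%, where all tested probe sets gave 8.99%). The ranges did not overlap for 1 lower and 2 higher. Serinc2, a serine incorporator family gene near Ptp4a2, had 225 ± 34.1 in Zmpste24-/- and 369 ± 39.3 in WT (SD, n = 3 each), a log2 difference of -0.68 with a limma adjusted p of 0.9999 and, with the block, 0.2700. The lipid droplet protein gene Plin2 differed by -0.22, and the receptor phosphatase gene Ptprf and Tmem125 by 0.28 and 0.67.

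**Figure D5:**
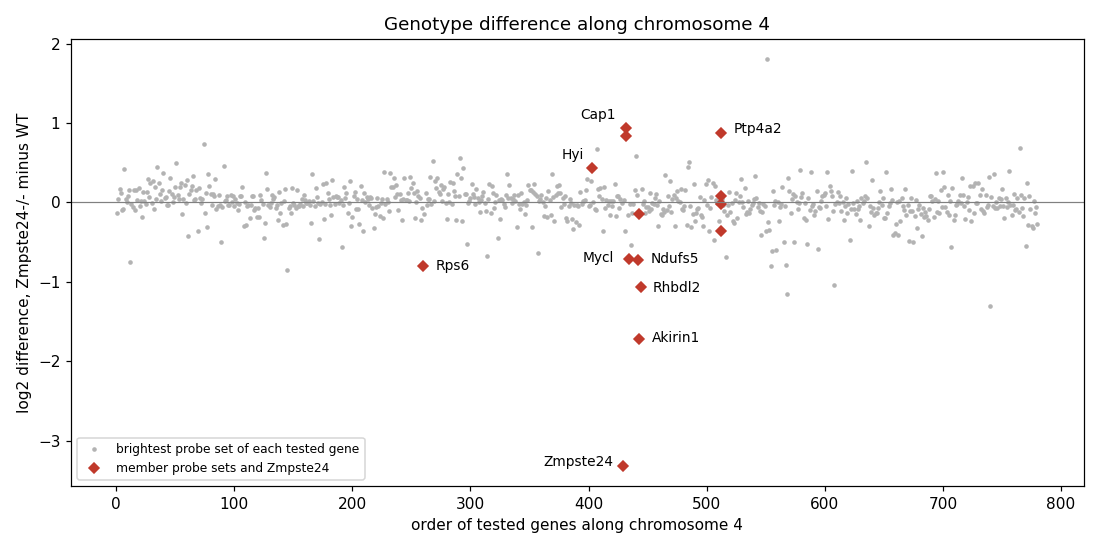
Log2 difference of signal + 16, Zmpste24-/- minus WT (y axis), of 780 tested genes in their order along chromosome 4 (x axis, rank), grey for the brightest probe set of each gene and red for every tested probe set of the members and Zmpste24. Beyond 0.7 in size lie 12 of the 780 genes on the lower side and 3 on the higher side, with most genes near 0. Those on the lower side include Zmpste24 and the chosen members Rps6, Ndufs5, Mycl and Rhbdl2, and those on the higher side include Cap1.

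Over the whole of chromosome 4, the ranges did not overlap for 5.75% of 1408 tested probe sets, 46 lower and 35 higher in Zmpste24-/-, close to the 5.24% of all tested probe sets. By this share chromosome 4 ranked 5 of 20 chromosomes, which ran from 4.11% to 6.19%. The share includes Zmpste24 and the members, which were chosen on this same contrast, so nothing is read from the rank. By the share with a block-fit p under 0.01, chromosome 4 was at 3.91% (55 of 1408, members and Zmpste24 included) and the X chromosome at 3.91% (29 of 741), the highest of 20 chromosomes, with the lowest at 1.33%. The 4 probe sets called with the block that have a single symbol carry symbols of chromosome 4 genes, with the doubt given above for 1416494_at of Ndufs5. They are Zmpste24 and the members Akirin1, Rps6 and Ndufs5, which were chosen on this chromosome and by this contrast. Nothing is therefore read from their place.

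Relatives and partners of the members were examined in lists by role. Each list was counted over the brightest probe set of each gene, leaving out the members, and in limma 0 genes of any list were called with or without the block, nor had any an unadjusted p under 0.05 without it. Akirin2, the only relative of Akirin1, had 5692 ± 1079 in Zmpste24-/- and 4903 ± 472 in WT, a log2 difference of 0.20 (SE 0.17), opposite in sign to Akirin1. Of 20 tested genes of the small ribosomal subunit, 15 were lower and 5 higher, with a median of -0.06 and a range from -0.11 to 0.15. The lowest was Rps10 at -0.11, with Rps3 at -0.11 and Rps19 at -0.09. The Rps6 probe set 1416142_at, chosen for its difference, was at -0.80, with a mean signal of 1890 against 22493 for Rps10. The 9 probe sets shared with Rps6-ps4 had a median of -0.07, so these values do not set the Rps6 gene apart from the list. Of 11 genes of the S6 kinase pathway, 8 were lower (median -0.07), among them the translation initiation factor gene Eif4b at -0.11 and the mTOR inhibitor gene Tsc2 at -0.15, while the kinase gene Pdpk1 was at 0.18. Of 31 complex I genes, 21 were lower and 10 higher, with a median of -0.02 and a range from -0.17 (Ndufa10) to 0.13. Ndufa3 and Ndufb11 in that list were at 0.12 and -0.15. The probe set named for Ndufs5, chosen for its difference and of unsettled target, was at -0.73.

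For the PRL phosphatases and their CNNM partners, which transport magnesium, 4 of 5 were lower (median -0.07), with Ptp4a3 at -0.15, Cnnm1 at -0.55 and Cnnm3 at 0.17. Of 16 genes of actin filament turnover, 12 were lower and 4 higher (median -0.07), but the median was 0.01 without WT replicate 2 and 0.03 without Zmpste24-/- replicate 1. With the block 5 of these had an unadjusted p under 0.05 (31.3%, where all tested probe sets gave 8.99%), 3 lower and 2 higher. The same count was 4 of 20 for the small ribosomal subunit (20.0%, all lower), 2 of 31 for complex I (6.45%, 1 lower and 1 higher), 2 of 4 for glyoxylate metabolism (both lower), 2 of 12 for the MYC and MAX network (16.7%, 1 lower and 1 higher) and 1 of 1 for Akirin2, which was higher. It was 0 for the S6 kinase, PRL and rhomboid lists. Among the actin genes the LIM kinases, which inactivate cofilin, were lower, Limk1 by -0.40 and Limk2 by -0.30, and Gmfb, of the cofilin fold, was at 0.19. None of these 5 actin genes passed over all probe sets, with block-adjusted p-values from limma of 0.418 for Limk1 and 0.484 for Limk2 and Gmfb.

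Of 7 rhomboid family genes, 6 were lower (median -0.08), with Rhbdd2 at -0.21, Rhbdf2 at -0.35 and Rhbdl1 at -0.21, all smaller in size than Rhbdl2. The 4 tested genes of glyoxylate and hydroxypyruvate metabolism were all lower (median -0.27), opposite to Hyi, with Pgp at -0.22, the reductase gene Grhpr at -0.27 and Hoga1 at -0.26. Of 12 genes of the MYC and MAX network, 4 were lower and 8 higher (median 0.07), with the MYC antagonists Mxd3 at -0.62 and Mga at 0.22, and the shared partner Max at 0.22. Over all tested probe sets 51.1% were lower in Zmpste24-/-.

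By Pearson correlation of log2 signal over the 6 arrays, the probe sets most like 1416911_a_at of Akirin1 were those of Tmem167b (0.992) and Zmpste24 (0.989). Rps6 was most like Ggps1 (0.993) and 2200002J24Rik (0.986), and Ndufs5 most like the interferon-induced Ifi27l2a (0.999) and Epha1 (0.998). For Ptp4a2, 1435129_at was most like Ccdc68 (0.995) and Yae1d1 (0.988), and 1460707_at most like Ikbkb (0.985) and Immt (0.982). Cap1 was most like Marcksl1 (0.996), also on chromosome 4, and Pigz (0.994), and Rhbdl2 most like Zfp142 (0.988) and Slc9a3r2 (0.985). The 6 points of each correlation are the same arrays, among which number 1 stood apart, and the highest of so many correlations is high by selection. Between probe sets of one gene the same measure was 0.984 for Cap1 and 0.653 for Akirin1, and for Ptp4a2 it ran from -0.885, between 1460707_at and 1435129_at, to 0.620.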

How the data were processed

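RNA of 6 cultures was measured, on 1 array each. The authors deposited linear signal intensity for each probe set, computed in the GCOS package per the submitters' processing notes (version not stated there). Every array had a trimmed mean of 500, leaving out 2% at each end, and array medians were 56.1 to 70.3. The 64 control probe sets were left out. The number of arrays limits the precision. P-values measure only the spread between these cultures, which may be technical.

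Values were analysed as log2(value + 16), which understates differences of dim genes. limma 3.58.1 in R 4.3.3 was fitted to 27022 probe sets with an intensity trend and Benjamini-Hochberg adjustment. The fit was tested on simulated data of 27022 probe sets. In the first simulation, which gave each probe set its own posterior variance, the limit set on false calls was exceeded: 50 of 250 culture number calls (20.0%) and 20 of 191 block-fit genotype calls (10.5%) were false, against 4 of 156 (2.56%) without the block. The simulation was then changed, not the test, to variances drawn from limma's own prior, which gave 10 of 200 (5.00%), 4 of 126 and 4 of 131. The second shows that the code recovers what limma's model assumes. It does not show that the 5% threshold holds in these data, so culture number and block calls may include more false ones than 5%.

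Gene names came from the platform annotation (34945 probe sets with 1 symbol, 932 with several, 9160 not listed), 34741 of them matched by gene identifier in RefSeq (GRCm38.p6), which also gave gene order and promoters. The sources used here name no build for the array. Promoters were found for the members other than Hyi.

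The members, lists, naming rule and alternatives were chosen with earlier results of these data known. All member probe sets were named, up to 3 genes of each list and 6 neighbours by smallest block p, and the 2 probe sets most like each non-overlapping member probe set. Macf1 and the ends of ranges were named after their values were seen. As a pairing check, departures from the genotype mean were correlated between cultures of one number, giving 0.83, 0.59 and 0.57, each above 0.1, so numbers were taken as pairs, as the growth notes also call them. Across numbers 2 and 3 the values were nearly as high, 0.55 and 0.49, so the check sets number 1 apart and separates numbers 2 and 3 little. Figures were drawn with matplotlib 3.10.9.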

Additional observations from a re-analysis of the deposited data

How the results depend on the processing

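The alternatives changed the pseudocount (1 or 64), the filter (none, or 60% left out), the scaling (quantile or median), the intensity trend, the replicate block and the arrays used (each left out in turn, and numbers 2 and 3 alone, chosen after seeing the data). The count of probe sets called between genotypes was 0, became 5 with the replicate block and 20 with numbers 2 and 3 alone, and ranged from 0 to 4 with one array left out, the 4 without WT replicate 1. The block changed no call of a listed gene or neighbour. Member probe sets called between culture numbers, 8 in all, were 4 with median centring, 1 with no intensity trend, and 4 to 10 with one array left out, the 4 without WT replicate 1. Member probe sets whose genotype ranges did not overlap, 7 in all, were 12 with numbers 2 and 3 alone, where fewer arrays make separation easier, and 7 to 10 with one array left out. The median of the MYC and MAX list was 0.07 in the main fit and 0.0068 with numbers 2 and 3 alone. Some other list medians moved further with one array left out. With one array left out, medians crossed 0 for the small ribosomal subunit (-0.13 to 0.03), complex I (-0.05 to 0.01), the PRL list (-0.41 to 0.20), actin turnover (-0.14 to 0.03) and the rhomboid list (-0.25 to 0.07). Of the 18 member probe sets, 14 kept the sign of their genotype difference in every alternative run, and 1420613_at, 1422087_at, 1434777_at and 1445233_at did not. The other causes of these changes were not tested. No detection calls were analysed here, so how far dim Mycl and Rhbdl2 signals lie above background is not known.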
